A study of Mus musculus with 29 samples.

Results

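The genes described are 10 adipocyte genes, Ucp1, Cidea, Cox7a1, Fabp3, Adipoq, Fabp4, Plin1, Car3, Thrsp and Pnpla3, read on the array of a normal mouse lung and on 28 arrays of lung tumours. They were chosen by the signals measured on these arrays, where the normal array stood high for fat genes, so the contrast of normal against tumour is given for them as a description, with no test. Of the 10, 9 were measured, through 18 probe sets, out of 18194 genes measured in all. No probe set was named Plin1 in the annotation used, and Plin1 was not analysed here.

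Brown adipocytes burn fatty acids for heat through uncoupling protein 1 in the inner mitochondrial membrane, and they are packed with mitochondria and small lipid droplets. White adipocytes store triglyceride in a single large droplet and secrete hormones such as leptin. Both kinds express adiponectin and the fatty acid carrier Fabp4. The lung has lipid-handling cells of its own: lipofibroblasts with Plin2-coated droplets, alveolar type II cells, which make surfactant lipid, and alveolar macrophages, which take it up. In mice the mediastinum holds fat, some of it brown.

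All 29 samples were mice of a 129/Bl6 mixed background that carried CCSP-rtTA, a doxycycline-dependent activator under the promoter of a club cell gene. The normal lung (1 array) carried CCSP-rtTA alone. TI-K primary tumours (8 arrays) also carried TRE-KrasV12, an inducible oncogene, and TI-KM primary tumours (14 arrays) carried TRE-KrasV12 and TRE-Mad2, an inducible spindle checkpoint gene. TI-KM recurrences (6 arrays) had the TI-KM genotype and came from tumours that relapsed, in a study of relapse after the oncogene is withdrawn. Ages, doxycycline schedules and how the normal lung was dissected are not given in the sources used here. Nothing in the labels says that each array is a separate animal, and TI-KM primary replicates 1 and 2 share a number in their titles, so the p-values measure the spread between these samples only.

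Every value below is the deposited signal of 1 probe set on a linear scale, and differences are on a log2(signal + 20) scale, which understates changes of weak genes. The 2% trimmed mean was 500.003 on each array, and the median signal of an array lay between 69.9 and 170. Levels of different probe sets are not set against each other, because each has its own binding efficiency. An 18S ribosomal control probe set split the tumour arrays: 10 (6 TI-KM primary and 4 recurrences) lay between 12665 and 24001, and 18 lay between 5939 and 10857. The normal lung stood at 12569. Of those 18, 5 TI-K arrays had title numbers above 6000, and the remaining 13 (3 TI-K primary, 8 TI-KM primary and 2 recurrences) held all 3 tumour groups.

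Promoters of 7 of the 10 genes were in the RefSeq table of the GRCm38.p6 build. The 250 bases before the start of transcription are shown for 4 genes that stood high together on the normal array, with Ucp1 and Cox7a1 for brown fat, Adipoq for fat of both kinds and Thrsp for fat synthesis. They lie at chr8:83290098-83290347 on the plus strand, chr7:30183921-30184170 on the plus strand, chr16:23146286-23146535 on the plus strand and chr7:97417551-97417800 on the minus strand. They run 5′ to 3′ along the gene, and capitals mark matches to the motifs searched:
Ucp1: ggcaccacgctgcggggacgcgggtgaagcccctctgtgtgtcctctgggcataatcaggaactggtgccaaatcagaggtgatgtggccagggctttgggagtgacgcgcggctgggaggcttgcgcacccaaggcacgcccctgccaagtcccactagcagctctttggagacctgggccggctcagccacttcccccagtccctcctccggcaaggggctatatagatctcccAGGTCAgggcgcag
Cox7a1: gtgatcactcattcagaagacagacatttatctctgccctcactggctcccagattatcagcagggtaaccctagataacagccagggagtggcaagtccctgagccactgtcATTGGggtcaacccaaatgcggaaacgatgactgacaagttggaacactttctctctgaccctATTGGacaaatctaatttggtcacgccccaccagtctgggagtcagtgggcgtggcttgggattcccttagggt
Adipoq: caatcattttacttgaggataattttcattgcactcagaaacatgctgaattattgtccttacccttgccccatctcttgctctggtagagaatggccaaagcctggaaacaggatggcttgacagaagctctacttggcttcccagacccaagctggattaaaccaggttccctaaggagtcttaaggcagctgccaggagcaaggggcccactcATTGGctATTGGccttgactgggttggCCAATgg
Thrsp: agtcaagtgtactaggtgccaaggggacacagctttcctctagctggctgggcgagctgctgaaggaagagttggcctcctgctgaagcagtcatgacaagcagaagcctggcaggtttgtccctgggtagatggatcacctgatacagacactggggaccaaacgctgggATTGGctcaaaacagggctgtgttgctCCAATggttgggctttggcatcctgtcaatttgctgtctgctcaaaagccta

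Both strands were searched for the TATA box TATAAA, for the CCAAT box, for the E-box CACGTG, for the nuclear receptor core AGGTCA and for the DR1 repeat, a pair of copies of AGGTCA in the same direction with 1 base between, exact or with any base at position 3 of each copy (AGGNCA). An exact DR1 match overlaps AGGTCA by construction. DR1 is the arrangement bound by PPAR with RXR, the main regulators of fat cell genes. Ucp1 had 1 AGGTCA, beginning 14 bases before the start, and 14% of all 32851 windows of this length held one. CCAAT, written ATTGG where it lies on the other strand, was found 2 times in Cox7a1, 2 times in Thrsp, 3 times in Adipoq and once in Pnpla3, and 33.8% of all windows held it. None of the 7 windows held TATAAA (12.4% of all windows), CACGTG (6.02%), the exact DR1 (0.0335%) or the looser one (0.338%). These are matches of letters in 1 window a gene and say nothing of binding.

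All 9 measured genes were higher on the normal lung array than on each of the 28 tumour arrays, by their representative probe set, the one with the highest mean. Over all 18194 genes, 11.6% lay above every tumour array and 10.6% lay below; since the contrast chose the genes, nothing is read from the count. Only 7 of the 9 passed the filter on low values (above the 40th percentile of the array in at least 6 arrays); Ucp1 and Adipoq did not, because they were near background on nearly all tumour arrays, so the size of their difference from the tumours depends on the offset.

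**Figure D1:**
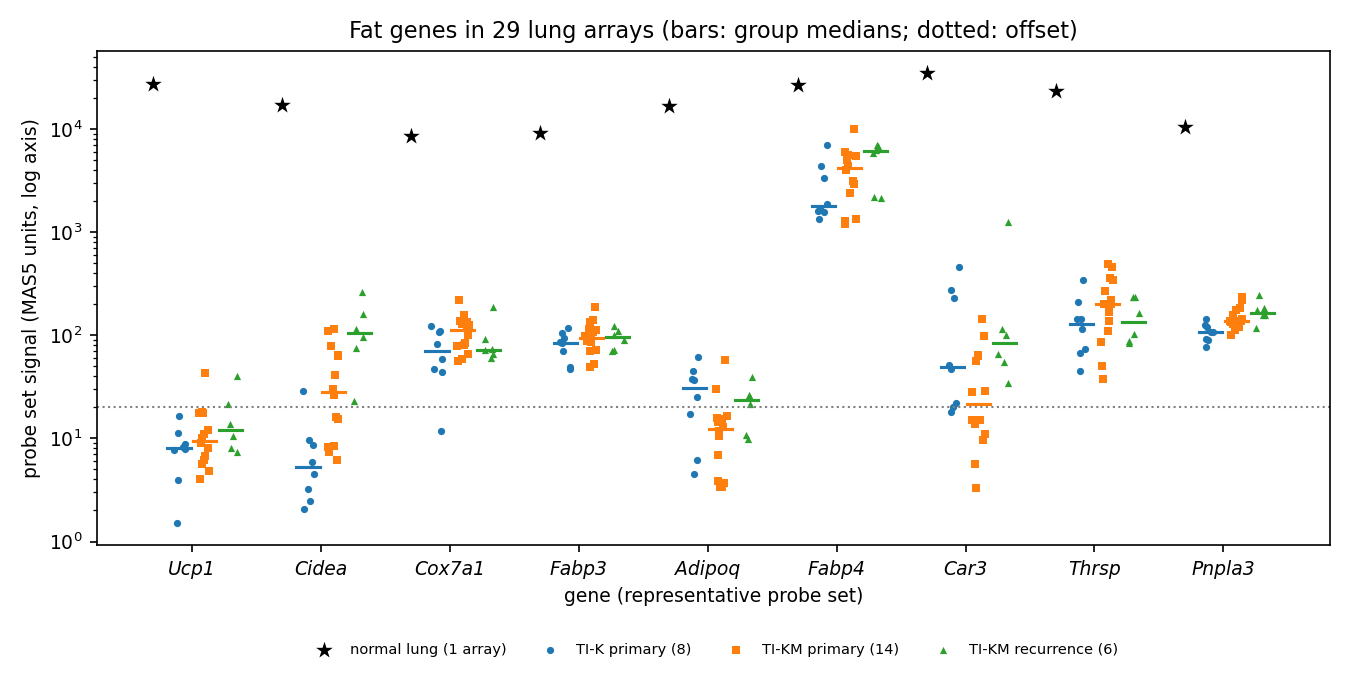
Signal of the representative probe set of 9 fat genes (log axis, MAS5 units) on 1 normal lung array (star), 8 TI-K primary, 14 TI-KM primary and 6 TI-KM recurrence arrays, with bars at group medians and a dotted line at the offset of 20. The star lies above every tumour point for each gene, and Fabp4 has the smallest gap.

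Among the genes of brown fat, Ucp1 read 27200 on the normal array. It lay between 1.51 and 16.4 (median 7.99) in TI-K primary tumours, between 4.08 and 42.9 (median 9.54) in TI-KM primary tumours and between 7.39 and 40.4 (median 12.1) in recurrences. No tumour array reached its own 40th percentile for Ucp1, so the tumour groups overlapped near background, and the difference from the tumour median was 9.88 on the log2 scale.

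Cidea, a lipid droplet protein abundant in brown fat, read 17182 on the normal array. It lay between 2.06 and 28.6 (median 5.25) in TI-K primary tumours, between 6.12 and 114 (median 28.3) in TI-KM primary tumours and between 23.3 and 265 (median 106) in recurrences. The recurrences were mostly above the TI-K tumours, with an overlap at the low end, and the normal array was 8.59 above the tumour median on the log2 scale.

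Cox7a1, the heart and muscle isoform of a cytochrome c oxidase subunit that brown fat also uses, read 8667 on the normal array. Its range was 11.9 to 122 (median 71.2) in TI-K primary tumours, 57.0 to 222 (median 113) in TI-KM primary tumours and 60.5 to 190 (median 72.9) in recurrences. The tumour groups overlapped throughout, and the normal array was 6.39 above the tumour median on the log2 scale.

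Fabp3, the fatty acid carrier of heart, muscle and brown fat, read 9131 on the normal array by its representative probe set. Its tumour values ran from 46.9 to 119 (median 84.9) in TI-K primary tumours, 49.4 to 187 (median 95) in TI-KM primary tumours and 70.5 to 124 (median 96.3) in recurrences, all overlapping. The difference from the tumour median was 6.37 on the log2 scale. The other Fabp3 probe set did not show it: it read 136 on the normal array against 30.7 to 200 in the tumours, a difference of 0.32.

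Among the genes of fat in general, Adipoq, the hormone adiponectin, read 16732 on the normal array. It ranged from 4.51 to 61.4 (median 30.9) in TI-K primary tumours, 3.35 to 57.3 (median 12.3) in TI-KM primary tumours and 9.99 to 39.1 (median 23.4) in recurrences. The 3 tumour groups overlapped, 1 tumour array was above its 40th percentile, and the normal array was 8.88 above the tumour median on the log2 scale.

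Fabp4, the adipocyte fatty acid carrier that endothelium and macrophages also make, was above the 40th percentile on all 28 tumour arrays, as was Pnpla3. It read 27121 on the normal array, against 1348 to 7019 (median 1793) in TI-K primary tumours, 1204 to 9971 (median 4190) in TI-KM primary tumours and 2168 to 7005 (median 6089) in recurrences. The difference from the tumour median was 2.87 on the log2 scale, and its other 3 probe sets gave 4.33, 4.6 and 3.2, each with normal lung above all 28 tumours. Those probe sets did not order the tumour groups alike: the one with the lowest signal had medians of 59.4 in TI-K primary tumours, 15.7 in TI-KM primary tumours and 6.57 in recurrences.

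Car3, a carbonic anhydrase abundant in fat and slow muscle, read 34941 on the normal array. Its values were 18.1 to 459 (median 49.4) in TI-K primary tumours, 3.27 to 143 (median 21.7) in TI-KM primary tumours and 34.7 to 1262 (median 83.6) in recurrences. The normal array was 8.98 above the tumour median on the log2 scale, and the tumour groups overlapped widely, with 1 recurrence far above the rest. The other 3 Car3 probe sets were also highest on the normal array, by 6.45, 3.70 and 4.41. All 3 ordered the tumour medians otherwise than the representative one, with TI-K primary lowest and recurrences highest; the brightest had medians of 72.3 in TI-K primary tumours, 124 in TI-KM primary tumours and 186 in recurrences.

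Thrsp, a nuclear protein of fat synthesis, read 23610 on the normal array. It lay between 44.7 and 342 (median 128) in TI-K primary tumours, between 37.7 and 487 (median 201) in TI-KM primary tumours and between 84.1 and 237 (median 134) in recurrences. All groups of tumours overlapped, and the normal array was 7.08 above the tumour median on the log2 scale by this probe set and 5.41 and 1.92 by the other pair.

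Pnpla3, a lipase and acyltransferase of lipid droplets, read 10598 on the normal array. It ranged from 76.9 to 146 (median 108) in TI-K primary tumours, 101 to 237 (median 139) in TI-KM primary tumours and 119 to 245 (median 167) in recurrences. The difference from the tumour median was 6.06 on the log2 scale, and the recurrences overlapped the upper TI-K tumours.

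Other genes of brown fat, white fat and the cells of the lung were then read on the same arrays, from 14 lists with 177 genes, of which 169 were measured. The lists were written with earlier results of these data known. Counts below leave the 9 members out and are set beside all genes, of which 11.6% lay above all 28 tumours, 10.6% lay below, and the median difference was -0.03 on the log2 scale. In the limma fit of 4 groups, 6.85% of 14603 genes tested were called higher and 7.21% lower in normal lung than in the mean of the tumours (Benjamini-Hochberg adjusted p below 0.05). That fit has 1 normal array, whose unknown spread is borrowed from the tumours, so these calls describe where this array lies and are no test of normal lung as a condition. The tissue is bulk, so more cells of a type and more RNA per cell cannot be told apart.

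Of 19 other brown fat genes, 15 lay above all 28 tumours and 4 within their range, with a median difference of 3.85; limma tested 14 and called 12 higher and 0 lower. Otop1, a proton channel of brown fat, read 5971 against 6.0 to 62.6 in the tumours. Cox8b, another muscle-type cytochrome c oxidase subunit, read 4216 against 3.93 to 69.6. The 4 within the tumour range were looked up after their values were seen, and 3 of them are transcription factors used to mark brown fat. Prdm16 read 1624 (tumours 411 to 2617), Zic1 read 1.74 (0.77 to 75.6) and Lhx8 read 55.2 (1.61 to 161). The other was the secreted factor Bmp8b at 70.1. Other regulators of the list, also looked up afterwards, lay above all tumours: Ebf2 read 1116 (2.93 to 81.7), Ppara read 2213 (14.6 to 254) and the coactivator Ppargc1a read 1056 (97.5 to 714).

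Of 12 white fat genes, 6 lay above all tumours and 6 within, with a median difference of 1.08, and limma called 3 of 9 tested higher and 0 lower. Lep, which encodes leptin, read 1561 against 1.94 to 27.6 in the tumours, and Slc7a10, an amino acid transporter on white adipocytes, read 353 against 30.7 to 223. Hoxc8, a positional gene of posterior fat depots, read 1131 against 0.58 to 43.0, while Hoxc9 (23.6 against 10.2 to 173) and Hoxc10 (26.4 against 2.80 to 82.9), looked up afterwards, were within range. Sncg, a synuclein of white fat, read 1058 against 3.41 to 291 and was among the genes called higher. It was above the 40th percentile on 5 tumour arrays, so it reached the 6 arrays of the filter only with the normal array. Its place among the genes tested therefore rests on the contrast described. Retn, which encodes the white fat hormone resistin, read 37.2 and stood inside the tumour range of 5.44 to 323. So markers of each kind of fat lay above all tumours, and markers of each kind lay inside the tumour range. The brown fat list had more of its genes above all tumours (15 of 19, median difference 3.85) than the white fat list (6 of 12, 1.08). Both lists were written with earlier results known, and the 2 were not tested against each other.

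Of 18 other genes shared by both kinds of adipocyte, 15 lay above all tumours and 3 within, with a median difference of 4.52; limma called 9 of 14 tested higher and 0 lower. Pck1, the enzyme of glyceroneogenesis in fat, read 8114 against 0.45 to 31.6 by 1 probe set, a difference of 8.36, while its other pair gave 0.14 and 2.90. Cidec, a droplet protein of large fat droplets, read 5955 against 1.54 to 118. The 3 within range, named after their values were seen, were Cebpa, the fatty acid transporter Cd36 (15816 against 3184 to 16341) and Acvr1c.

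The enzymes of lipid metabolism stood high too. Of 12 other genes of fatty acid and triglyceride synthesis, 11 lay above all tumours, with a median difference of 2.10, and limma called 8 of 12 higher and 0 lower. Elovl6, a fatty acid elongase, read 17723 against 160 to 429, a difference of 5.98, while its other 2 probe sets gave 1.41 and 6.20. Mlxipl, which encodes the glucose-responsive factor ChREBP, read 2559 against 2.63 to 111. Fasn, fatty acid synthase, was already abundant in the tumours (2558 to 15738) and read 25074, a difference of 1.08 that was not called. All 12 genes of fatty acid oxidation lay above all tumours and were called higher by limma, with a median difference of 2.76. Acadvl, Acadm and Acadl, the chain-length acyl-CoA dehydrogenases, differed by 2.93, 3.0 and 2.05, Etfdh, which passes their electrons on, differed by 3.41, and the carnitine enzyme Cpt2 by 3.38. Their other probe sets gave smaller differences, 1.73 for Acadl, 1.38 for Etfdh and 0.95 for Cpt2.

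**Figure D2:**
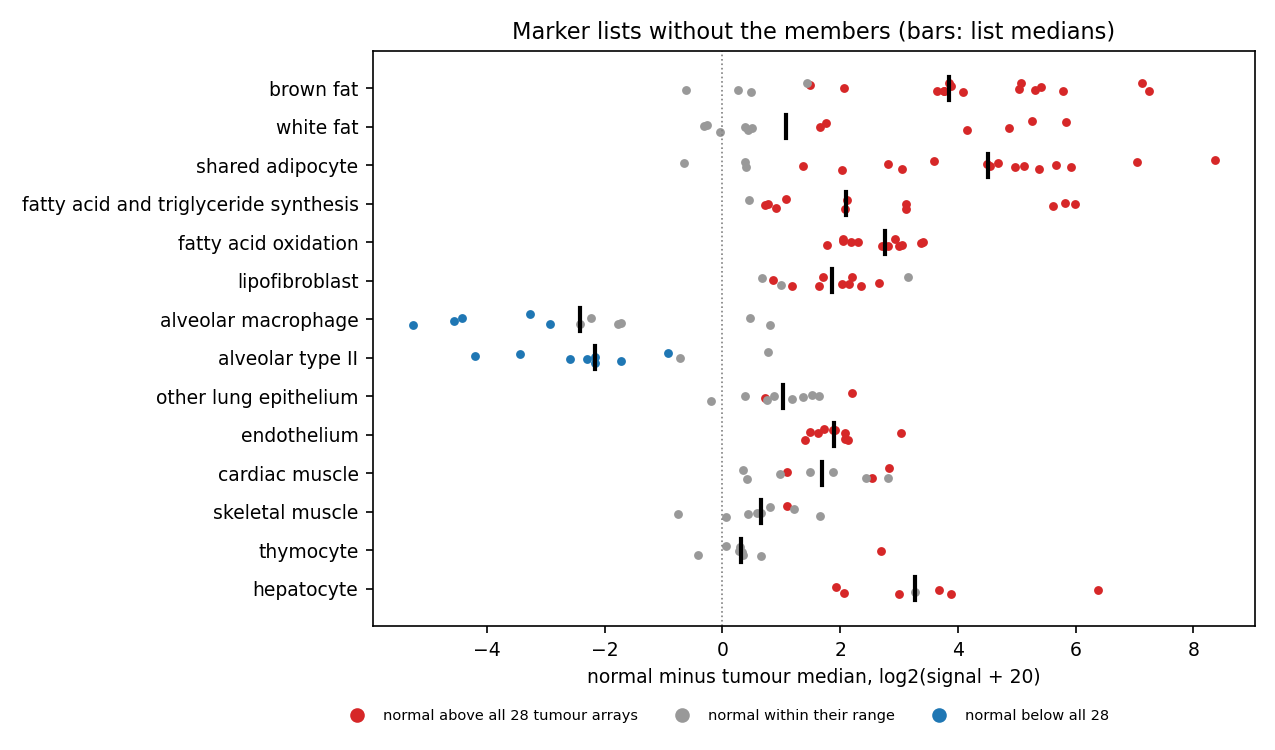
Difference between the normal lung array and the median of 28 tumour arrays, on the log2(signal + 20) scale, for each gene of 14 marker lists (points; the 9 members left out), with bars at list medians. Red points are above all 28 tumour arrays, grey within their range and blue below; the brown fat, shared adipocyte and hepatocyte medians lie above 3, and the alveolar macrophage and alveolar type II medians lie below -2.

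The lipid-handling cells of the lung differed in direction. Of 12 lipofibroblast genes, 9 lay above all tumours and 3 within, with a median difference of 1.87, and limma called 4 of 12 higher and 0 lower. Plin2, the coat protein of their droplets, read 17895 against 4033 to 12951, a difference of 1.18 that was not called. Tcf21, a factor of lung mesenchyme, read 2015 against 122 to 1680 by 1 probe set (a difference of 2.35, not called) and differed by 0.12 by the other. Pth1r, the receptor for parathyroid hormone-related protein, read 302 against 28.2 to 144, which limma called higher. Vegfd differed by 2.66 and was not called, and Mfap4, a matrix protein, read 725 inside the tumour range of 6.15 to 1517.

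None of 11 alveolar macrophage genes lay above the tumours; 5 lay below all 28 and 6 within, with a median difference of -2.42, and limma called 6 lower and 0 higher. Chil3, a chitinase-like protein of alveolar macrophages, read 506 against 2525 to 33132, and Siglecf, a surface receptor used to sort them, read 30.5 against 102 to 3438. Marco, a scavenger receptor, was near background at 4.97 against 6.10 to 2704, and was not called. Atp6v0d2 and Plet1 were called lower by limma, with differences of -4.43 and -2.94, though 1 of the 3 Plet1 probe sets gave 0.41.

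Of 10 alveolar type II genes, 8 lay below all tumours and were called lower by limma, 0 were called higher, and the median difference was -2.17. Sftpb, a surfactant protein, read 685 against 4100 to 15055, and Sftpa1 read 6638 against 16407 to 39618. Napsa, the protease that processes surfactant proteins, read 693 against 4438 to 18004 (its other probe set differed by -1.05), and the factor Etv5 read 762 against 1899 to 8303. Sftpc, the most specific type II gene, read 28262, inside the tumour range of 10460 to 31058, a difference of 0.77 by this probe set and -0.15 by its other one.

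Genes of other lung cells were read on the normal array too, against lung tumours only, so they do not settle what the sample held. Ager, of alveolar type I cells, read 17311 (tumours 9784 to 29720), and Scgb1a1, the club cell secretory protein, read 33334 (1976 to 35424). Ager differed from the tumour median by -0.19 by this probe set and by -1.20 by its other one. Of 10 genes of these and other epithelial cells, 2 lay above all tumours and 8 within, with 0 called by limma and a median difference of 1.03. Of the other club cell genes named, Scgb3a2 at 23220 was above all tumours and Cyp2f2 at 18061 was within their range. All 10 endothelial genes lay above all tumours, with a median difference of 1.89, and limma called 7 higher and 0 lower. Kdr, a receptor for vascular endothelial growth factor, read 4772 against 219 to 1327, Cdh5 read 1324 against 155 to 853 (0.24 by its other probe set) and Cldn5 read 4187 against 542 to 2362; Tek was called as well, and Pecam1 (262 against 15.9 to 233) was not.

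Lists for tissues next to the lung were read to see what else the normal sample held. Of 10 cardiac muscle genes, 3 lay above all tumours and 7 within, with a median difference of 1.68 and 0 of 8 tested called. Myh6, the atrial myosin, read 568 (tumours 4.14 to 1174), Myl7 read 105 (2.59 to 284) and Tnnt2 read 400 (2.54 to 548), all inside the tumour range, while Actc1 and Ckmt2 lay above it. Of 9 skeletal muscle genes, 1 (Mylpf, 158 against at most 153) lay above all tumours, 8 were within, and the median difference was 0.66. Acta1 read 238 and Ckm read 94.2 there, with Tnnc2 at 64.5 and Myh1 at 44.6. Of 8 thymocyte genes, Rag1 alone lay above, at 119 against 0.56 to 40.6, and the median difference was 0.32, with Dntt at 69.3, Ptcra at 33.9, Themis at 163 and Arpp21 at 26.9 within range. None of the skeletal muscle or thymocyte genes was called.

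Hepatocyte genes were high as well. Of 7, 6 lay above all tumours and 1 within, with a median difference of 3.27, and limma called 4 of 4 tested higher. Ttr, a thyroid hormone carrier, read 3086 against 2.25 to 110, Alb read 3644 against 106 to 2563 and Cyp2e1 read 1252 against 19.9 to 245. Ahsg, a liver secreted protein, read 120 against 2.60 to 62.2, and Apoa1 read 479 inside a range of 3.05 to 767. The part that these genes, the endothelial genes or the 18S control signal have in the fat gene values was not tested.

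**Figure D3:**
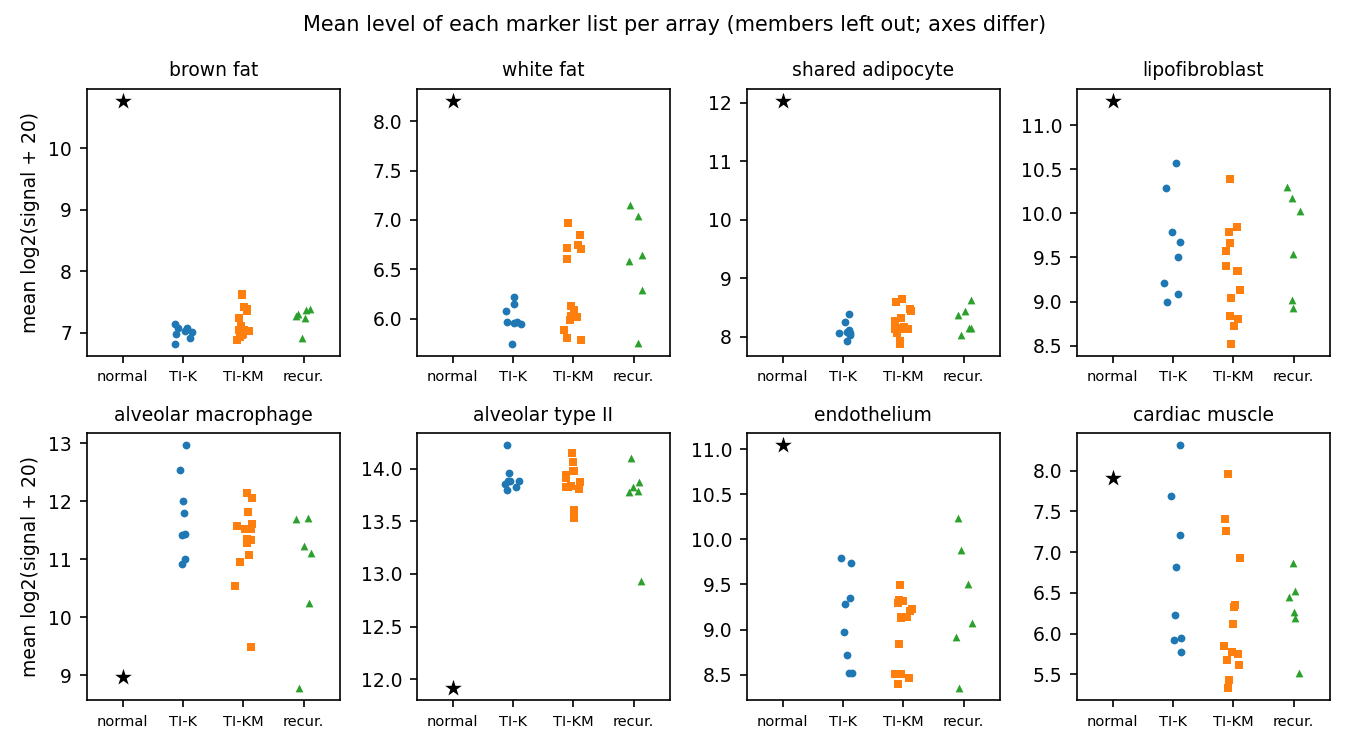
Mean log2(signal + 20) of 8 marker lists per array, with the members left out; the star is the normal lung and the other points are TI-K primary, TI-KM primary and recurrence arrays, and the vertical axes differ. Normal lung stood at 10.77 for brown fat against 6.82 to 7.63 over the tumour arrays, and at 11.92 for alveolar type II against 12.93 to 14.22.

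As a mean over a list on each array, the brown fat list stood at 10.77 on the normal lung, against 6.82 to 7.14 in TI-K primary tumours, 6.89 to 7.63 in TI-KM primary tumours and 6.91 to 7.39 in recurrences. The white fat mean was 8.20, against 5.75 to 6.22, 5.79 to 6.97 and 5.76 to 7.15 in the same order. The lipofibroblast mean was 11.27, against 8.99 to 10.57, 8.52 to 10.39 and 8.93 to 10.30. In each of these lists no tumour array reached the normal array. The alveolar macrophage mean was 8.97, below all primary tumours (9.48 to 12.97) and inside the range of the recurrences (8.78 to 11.72). The cardiac mean was 7.91, inside the range of the TI-K and TI-KM primary tumours (5.33 to 8.31) and above the recurrences (5.52 to 6.86).

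The contrasts between tumour groups did not choose the genes, so they were tested, in 1 limma fit with adjustment over all 14603 genes. Cidea and Pnpla3 were higher in TI-KM recurrences than in TI-K primary tumours, and neither call held when the array sets split by 18S signal and title number were taken into account. No other contrast called any of the 7 members tested. The 3 contrasts share groups and are given side by side, not as separate support.

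TI-KM recurrences and TI-K primary tumours differ in genotype, in relapse and in their array sets. Their contrast called 2 of 7 members (18.9% of all genes were called, 12.2% higher and 6.72% lower). Cidea was 2.17 ± 0.40 (SE) higher on the log2 scale, or 4.50-fold (95% interval 1.34 to 3.0, limma adjusted p 0.00115). Its TI-K values lay near background, so that size depends on the offset. It was 3.18 with an offset of 5 and 0.97 with 100. Cidea was above the 40th percentile on 10 tumour arrays, all of them TI-KM primary tumours or recurrences. It thus passed the filter only through groups where it was higher. In the fit without the filter it was also called (limma adjusted p 0.00113). Pnpla3 was 0.58 ± 0.18 higher, or 1.5-fold (95% interval 0.21 to 0.96, limma adjusted p 0.0264). With the array sets as a block, Cidea was 1.79 (limma adjusted p 0.197) and Pnpla3 0.15 (0.846), and over the 13 remaining arrays alone they were 1.2 (0.451) and 0.13 (0.874). TI-K primary tumours and recurrences share only that set of 13, with 3 and 2 arrays. With the block the SE rose from 0.40 to 0.56 for Cidea and from 0.18 to 0.21 for Pnpla3. A lost call there cannot tell a difference between array sets from lower precision. Within those 13 arrays, Pnpla3 ran from 107 to 146 in TI-K primary tumours, 101 to 158 in TI-KM primary tumours and 119 to 158 in recurrences, which overlap. Pnpla3 also lost its call without TI-K replicate 4 (limma adjusted p 0.0544) or without recurrence replicate 1 (0.0751), 2 (0.0525) or 4 (0.0560); Cidea kept its call in each of the 14 such fits.

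Among the rest, Fabp4 was 0.90 higher in recurrences than in TI-K tumours (95% interval 0.01 to 1.79, limma adjusted p 0.136), but -0.54 with the array sets as a block and -0.82 over the 13 remaining arrays. Thrsp, Car3, Fabp3 and Cox7a1 differed by 0.18, 0.47, 0.19 and 0.32, with intervals that spanned 0, and with the block Thrsp, Fabp3 and Cox7a1 were below 0 (-0.10, -0.12 and -0.74). Ucp1 and Adipoq, which failed the filter and were read from a fit without it, differed by 0.34 (95% interval -0.06 to 0.75) and -0.15 (-0.70 to 0.40).

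TI-KM and TI-K primary tumours differ by the Mad2 transgene and also in their array sets. The high-18S set held 6 of the 14 TI-KM arrays and no TI-K array, and 5 of the 8 TI-K arrays formed a set of their own. For those arrays genotype and array set cannot be told apart. The contrast called 0 of 7 members by limma (8.01% of all genes were called, 5.5% higher and 2.51% lower), and 3 had an unadjusted p below 0.05. Those were Cidea, 0.95 ± 0.33 higher (limma adjusted p 0.0660), Pnpla3, 0.41 ± 0.15 higher (0.0748), and Cox7a1, 0.56 ± 0.25 higher (0.140). Car3 was lower by 1.03 in TI-KM tumours (log2 difference -1.03 ± 0.51, limma adjusted p 0.186), and its interval reached 0.02. That direction is of the representative probe set alone: the TI-K mean log2 levels were 6.57, 5.36 and 4.52 on the other 3 and the TI-KM means 7.15, 5.58 and 4.82, and with the first of these as representative the difference was 0.58 (0.174). Cox7a1 was -0.36 with the array sets as a block. Adipoq, read from the fit without the filter, was -0.47 (95% interval -0.93 to -0.02, limma adjusted p 0.172). Cidea passed the threshold without TI-KM replicate 12 (limma adjusted p 0.0496) or 13 (0.0462), and Pnpla3 did without TI-K replicate 6 (0.0476).

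TI-KM recurrences against TI-KM primary tumours, which share a genotype, called 0 of 7 members by limma (0.26% of all genes were called, 0.0411% higher and 0.219% lower), and 2 had an unadjusted p below 0.05. Cidea was 1.22 ± 0.37 higher in recurrences (limma adjusted p 0.152), and passed without recurrence replicate 6 (1.52, limma adjusted p 0.0409). Car3 was 1.49 ± 0.56 higher (limma adjusted p 0.272), with the recurrence at 1262 among its values. In the order TI-K primary, TI-KM primary and recurrence, Cidea medians were 5.25, 28.3 and 106, and only the ends of the order differed past the threshold.

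**Figure D4:**
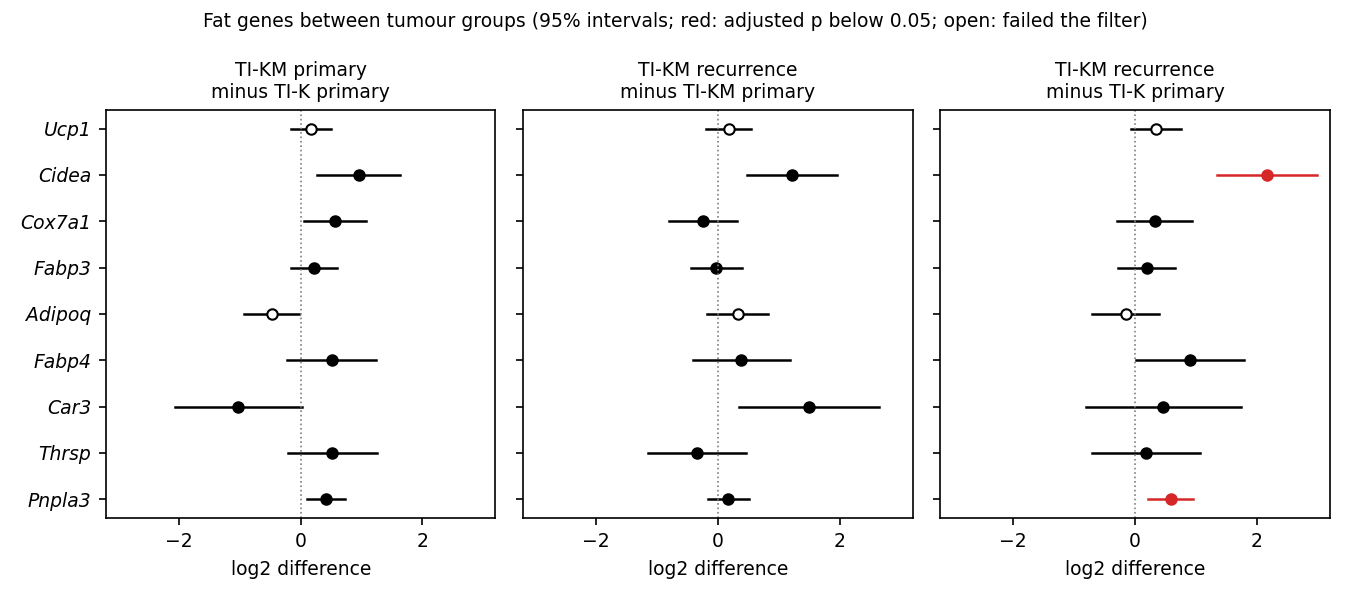
Log2 differences of 9 fat genes between tumour groups with 95% intervals, in 3 contrasts of the limma fit; red marks adjusted p below 0.05 and open circles genes that failed the filter. Red appears for Cidea (2.17) and Pnpla3 (0.58) in recurrence minus TI-K primary and nowhere else.

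The lists, members left out, are read beside the share of all genes called, 8.01% for TI-KM against TI-K primary tumours and 18.9% for recurrences against TI-K primary tumours. Of 14 brown fat genes tested, limma called 1 higher in TI-KM than TI-K primary tumours, Plin5, a droplet protein of oxidative tissue (0.72, adjusted p 0.0178). It also called Plin5 alone in recurrences against TI-K primary tumours (0.98, adjusted p 0.00481). The brown fat medians were 0.11 and 0.09 in these contrasts, beside 0.08 and 0.11 over all genes. Of 14 shared adipocyte genes, limma called 2 higher (Adig, 1.23, and Acvr1c, 1.12) and 1 lower (the lipase Lpl, -1.21) in recurrences against TI-K primary tumours. White fat had 1 of 9 called there, Sfrp5 (1.27), fat synthesis 1 of 12, Gpam (-1.08), and fatty acid oxidation 3 of 12, Acaa2, Hadha and Hadhb. In TI-KM against TI-K primary tumours limma called 2 of 12 oxidation genes higher, Acaa2 (1.03) and Hadhb (0.39), and 1 of 12 lipofibroblast genes lower, Pdgfra (-1.10), and none of the white fat, shared adipocyte or fat synthesis genes. Recurrence against TI-KM primary tumours called 0 genes of any list by limma. The list genes named here were not refitted with the array sets as a block, under which Cidea and Pnpla3 lost their calls. Differences between array sets may therefore enter these list calls.

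The 5 genes with the pattern most like Cidea over the 28 tumour arrays, by Pearson correlation of log2 values, were 1700028P14Rik (0.88), Stmnd1 (0.86), Lrguk (0.84), Cetn4 (0.84) and Tekt4 (0.84). Cetn4 is a centrin and Tekt4 a tektin of cilia. For Adipoq the 5 were Myl7 (0.66), Myh6 (0.64), Pdzd2 (0.62), Galnt15 (0.62) and Igf1 (0.62), of which Myl7 and Myh6 are atrial muscle genes; Adipoq was above a signal of 20 on 11 of the 28 arrays. All these arrays share the scaling to 1 trimmed mean.

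Foxj1, the master factor of motile cilia, ranged from 4.77 to 45.3 (median 24.9) in TI-K primary tumours, 6.66 to 239 (median 69.6) in TI-KM primary tumours and 19 to 530 (median 140) in recurrences. It read 125 on the normal lung, inside the tumour range, where Cidea was far above it. In recurrences against TI-K primary tumours Foxj1 was 1.74 higher (limma adjusted p 0.0213) and Dynlrb2, a dynein light chain of cilia, was 2.44 higher (0.00845), in the same contrast as the Cidea call. Of the 10 genes of type I, club and other epithelial cells, limma called 3 higher there, beside 12.2% of all genes. The remaining gene called was the club cell gene Cyp2f2 (2.02, limma adjusted p 0.0208). With the array sets as a block Foxj1 was 0.79 (limma adjusted p 0.655) and Dynlrb2 was 1.43 (0.543), so neither call held, as for Cidea. In the 13 remaining arrays Foxj1 ran from 10.6 to 37.2 in TI-K primary tumours and 19 to 68.3 in recurrences, which overlap. Their part in the Cidea result was not tested.

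Correlations with Cidea over the tumours are given as a description, with no p, since Foxj1 and Dynlrb2 were picked after the likeness was seen and the medians of Cidea and Foxj1 stood in the same order over the tumour groups. With Foxj1, r was 0.81 and rho 0.76 over 28 arrays, and r was 0.72 once the mean of each tumour group was subtracted. Within the 10 high-18S arrays r was 0.76, or 0.57 without the 2 arrays farthest from the median of Foxj1, and within the 13 remaining arrays it was 0.82. With Dynlrb2, r was 0.78 over 28 arrays, 0.66 with group means subtracted and 0.67 within each of those sets.

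Of the fat genes, only Adipoq and Ucp1 were set against Cidea in the same way, and both were near background in the tumours. With Adipoq, r was 0.14 over 28 arrays and 0.34 with group means subtracted. Within the 10 high-18S arrays it was 0.62, or 0.66 without the 2 farthest, and within the 13 remaining arrays it was 0.14. With Ucp1, r was 0.38 over 28 arrays, 0.18 without the 2 farthest and 0.21 with group means subtracted. It was 0.39 within the 10 high-18S arrays and -0.14 within the 13 remaining arrays.

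**Figure D5:**
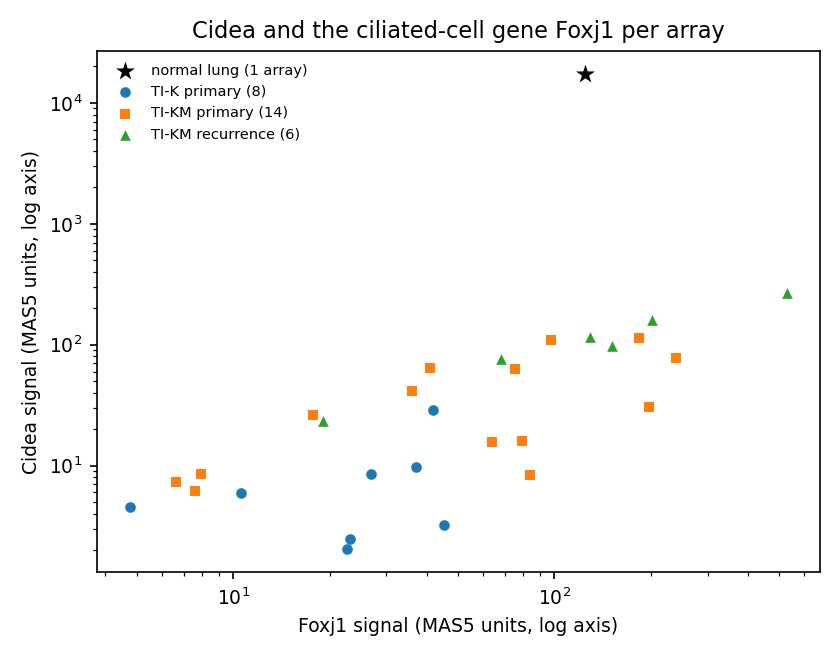
Cidea signal against Foxj1 signal per array, both on log axes in MAS5 units, for 1 normal lung (star) and the TI-K primary, TI-KM primary and recurrence tumours. The 28 tumours lie along a rising band (r = 0.81), and the normal lung, with Foxj1 at 125 and Cidea at 17182, lies far above it.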

How the data were processed

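Total RNA from 29 mouse lung samples was hybridized to Affymetrix arrays after a 2-cycle target preparation with a biotin label, per the labels' protocols. Each deposited value is an intensity, the linear signal of 1 probe set, and MAS5 is named in the submitters' processing notes. The arrays were used as deposited, since their 2% trimmed means were already equal. Precision is limited by the number of arrays, which have no sequencing depth. The series text names MOE430A 2.0, while the table holds 45101 probe sets.

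Of these, 34958 named 1 gene and 932 several in the platform annotation, and 9160 that were not controls named none. There were 64 controls, some of which named a gene and are counted there too. A RefSeq table of GRCm38.p6 matched 34754 probe sets. Each gene was read from its probe set of highest mean. An offset of 20 was added before the log2, and 14603 of 18194 genes passed the filter. limma 3.58.1 (R 4.3.3) fitted all 29 arrays as 4 groups with a variance trend, and calls used a Benjamini-Hochberg adjusted p below 0.05. On simulated data for these 14603 genes, the fit recovered 65 of 100 genes changed 2-fold and 94 of 100 changed 4-fold for TI-KM minus TI-K primary, 66 and 95 for recurrence minus TI-KM primary, and 54 and 98 for recurrence minus TI-K primary. In the same order, 7, 14 and 8 unchanged genes were called. The simulated noise was independent for each gene and held no array sets, so recovery on the real arrays may be lower.

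The members and lists were chosen with earlier results of these data known. The naming rule took every member, the first 3 genes of each list with the 2 others that differed most in normal lung, and the 5 genes most like Adipoq and Cidea. Arrays were grouped by their source labels. Alternatives were other offsets, filters, probe set choices, normalizations, array sets and each array left out.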

Additional observations from a re-analysis of the deposited data

Results flagged for a closer look

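For each of the 9 measured fat genes, the highest and lowest array of a tumour group were compared with their neighbours by Dixon's criterion. This was done in the 18 groups of TI-K primary tumours and recurrences, and the 14 TI-KM primary tumours were not examined. Chance flags about 1 in 20 groups, and 3 were flagged. Cidea in TI-K primary replicate 4 was 28.6, and the next highest TI-K tumour was 9.72. Car3 in recurrence replicate 1 was 1262, and the next highest recurrence was 115. Cox7a1 in recurrence replicate 2 was 190, and the next highest recurrence was 92.8. The cause was not tested.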

How the results depend on the processing

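The 9 members lay above all 28 tumours under each alternative except the filters and the choice of probe set: 7 with the 40th percentile filter, 8 when each probe set had to lie above, 8 with probe sets picked by tumour median and 2 with a 60th percentile filter, which fewer genes pass. Leaving out any 1 tumour array gave 9 to 9. For TI-KM minus TI-K primary, the count of members called went from 0 to 1 with an offset of 5 (Cidea, limma adjusted p 0.0395) and to 1 with quantile normalization (Pnpla3, 0.0454), and was 0 to 1 when 1 array was left out. For recurrence minus TI-KM primary it was 0 in all 13 other alternatives, among them the 10 high-18S arrays alone, a setting chosen after seeing the data, and 0 to 1 when 1 array was left out. For recurrence minus TI-K primary it went from 2 to 0 with the 60th percentile filter, which neither Cidea nor Pnpla3 passes, to 0 with the array sets as a block and to 0 with the 13 remaining arrays alone, and was 1 to 2 when 1 array was left out. Cidea stayed higher there in all 11 other alternatives that tested it, from 0.97 (offset of 100) to 3.18 (offset of 5) on the log2 scale. No call changed direction. Differences that were not called did: with the probe set picked by tumour median Car3 went from -1.03 to 0.58 in TI-KM minus TI-K primary, and with the array sets as a block or the remaining arrays alone Fabp4, Fabp3 and Cox7a1 fell below 0 against TI-K primary tumours, Thrsp with the block for recurrences. In recurrence minus TI-KM primary, Fabp4 (-0.23) and Thrsp (0.09) changed sign in the remaining arrays. The array sets for Foxj1 and Dynlrb2 and the subtraction of group means were added after seeing the data. No paired analysis was possible because the replicate numbers only name the arrays of a group and the labels pair none of them. A single normal array allows no error for normal lung. Members near background in the tumours (Ucp1, Adipoq and, on most arrays, Cidea) have only imprecise tumour values.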
